A study of Rattus norvegicus with 12 samples.

Results

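The 10 rat genes described here belong to the NRF2 antioxidant response and to glutathione synthesis and recycling. They are Nfe2l2, which encodes the transcription factor NRF2, its inhibitor Keap1, and the genes Nqo1, Srxn1, Txnrd1, Gclc, Gclm, Gsr, Ggt1 and Hmox1. The genes were listed by name, and every probe set that the platform annotation tied to exactly 1 of the 10 symbols was taken. All 10 genes had at least 1 such probe set, 15 probe sets in all, out of 14217 genes with a probe set of their own.

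RNA was measured on 12 single-colour Rat 230 2.0 arrays, 3 per group, from male adult Sprague-Dawley rats in a study of how liver cancer develops after a carcinogen. Control rats had injections of distilled water, and the other 3 groups were given diethylnitrosamine (DEN), an alkylating liver carcinogen, on a schedule of 70 mg/kg by intraperitoneal injection weekly for 10 weeks. The Hepatitis group was killed in week 5, the Cirrhosis group in weeks 13 to 14 and the group with hepatocellular carcinoma (HCC) in weeks 23 to 24. The labels count these weeks from the DEN treatment but not whether from its start or end, give no time for the Control group, and call every tissue liver, while the series description calls the last group HCC tissue. Counted from the start, the Hepatitis rats would have been killed before the schedule ended, so the groups may differ in total dose as well as in time.

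NRF2 is a transcription factor that binds antioxidant response elements in the promoters of genes for detoxification, thioredoxin and glutathione enzymes. In unstressed cells KEAP1 holds NRF2 and hands it to a ubiquitin ligase for degradation, and oxidants or electrophiles that modify KEAP1 let NRF2 accumulate. NRF2 is therefore controlled largely at the level of the protein, which arrays do not measure, and in liver its targets are known for handling reactive metabolites of drugs and carcinogens.

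Values are linear intensities in arbitrary units, with a median of 28.69 to 30.94 per array and 33.9% to 35.8% of values under 16. Differences were tested on log2(intensity + 16), which damps dim probe sets and understates their fold changes, in 1 limma fit of 31042 probe sets over all 12 arrays. A gene was read by its brightest probe set, and "rose" or "fell" is used where its Benjamini-Hochberg adjusted p over all probe sets was under 0.05. Errors are standard errors of the fit for log2 differences and SDs for intensities (n = 3 arrays per group). No label ties each array to a different rat, and the p-values cover the spread between arrays alone.

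The HCC arrays differed most from the rest in the fit of all arrays and in the Gapdh and beta actin control probes. Against Control that fit called 916 probe sets in Hepatitis, 1125 in Cirrhosis and 9237 in HCC. With only the 2 groups compared in each fit, the counts were 1189, 4949 and 4994 in the same order. With 1 weight per group, which lets the groups differ in spread, they were 2620, 4212 and 7197. The size of the gap between Cirrhosis and HCC in these counts thus depends on the fit. The signal of the Gapdh control probes at the 3′ end exceeded that at the 5′ end by 0.871 to 1.03 log2 units on Control arrays, 0.381 to 0.697 on Hepatitis arrays, 0.424 to 0.559 on Cirrhosis arrays and 1.36 to 3.20 on HCC arrays. The same measure for beta actin was 3.90 to 5.14 on HCC arrays and 2.18 to 2.78 on all others, while for hexokinase it was 0.514 to 0.653 and 0.499 to 0.974. Hepatocyte markers were bright in all groups, with 8 of 9 listed genes measured and none under 16 throughout a group, and their summed intensity was 38574 to 51768 in HCC against 54042 to 55328 in Control. In HCC against Control 4 of 8 hepatocyte, 4 of 8 macrophage, 3 of 4 endothelial and 4 of 5 erythroid markers fell, while 3 of 5 T cell markers rose, and 3 of 8 stellate markers rose and 1 fell. In that comparison 18.2% of all genes fell and 19.1% rose. Erythroid markers also fell earlier, 1 of 5 in Hepatitis and 4 of 5 in Cirrhosis, where 2% and 1.99% of all genes fell. Cholangiocyte markers, summed over the 6 of 9 listed genes that were measured, read 259, 278 and 258 in Control, 1100, 363 and 352 in Hepatitis, 628, 717 and 698 in Cirrhosis, and 6392, 380.2 and 1162 in HCC, so that replicate 1 was the highest in Hepatitis and in HCC. Of these 6 markers 3 were under 16 on all Control arrays, and 1 rose in HCC against Control, where 19.1% of all genes did. Skeletal muscle markers, summed over the 7 of 8 listed genes that were measured, read 72.3, 1963 and 87.6 in Control. They ran from 69.9 to 142 on the arrays of the other groups, so Control replicate 2 stood apart. In such bulk tissue fewer cells of a type and less RNA per cell cannot be told apart. The part of RNA quality and cell makeup in the results below was not tested.

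The promoters were searched because the response works through them. RefSeq promoters of the GRCr8 assembly were found for 8 of the 10 genes, 9 promoters in all since Txnrd1 has a pair, and Hmox1 and Gsr are named only. The 250 bases before each start were searched on both strands for the antioxidant response element core TGACNNNGC, held by 10.1% of all 33469 promoters in that window, and for the AP-1 motif TGAGTCA, held by 4.05%. The core matched in Gclm (chr2:213031885-213032134, plus strand), on the strand opposite to the gene 172 to 164 bases before the start, and in 1 Txnrd1 promoter (chr7:22755905-22756154, minus strand), on the strand opposite to the gene 78 to 70 bases before the start. The AP-1 motif matched in Srxn1 (chr3:161064562-161064811, plus strand), 62 to 56 bases before the start. No match overlapped another, and these 3 windows are shown in the direction of the gene with the match in capitals.
Gclm: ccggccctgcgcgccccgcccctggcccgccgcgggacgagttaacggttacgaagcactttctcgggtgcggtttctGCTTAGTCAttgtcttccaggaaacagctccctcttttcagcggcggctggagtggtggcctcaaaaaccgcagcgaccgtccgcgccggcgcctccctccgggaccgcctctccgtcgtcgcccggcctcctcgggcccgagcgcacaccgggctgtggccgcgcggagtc
Txnrd1: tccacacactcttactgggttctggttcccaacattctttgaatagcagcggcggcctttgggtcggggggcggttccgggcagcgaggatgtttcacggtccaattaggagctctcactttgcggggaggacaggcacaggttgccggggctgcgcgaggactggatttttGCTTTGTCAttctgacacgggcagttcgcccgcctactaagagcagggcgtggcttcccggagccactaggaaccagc
Srxn1: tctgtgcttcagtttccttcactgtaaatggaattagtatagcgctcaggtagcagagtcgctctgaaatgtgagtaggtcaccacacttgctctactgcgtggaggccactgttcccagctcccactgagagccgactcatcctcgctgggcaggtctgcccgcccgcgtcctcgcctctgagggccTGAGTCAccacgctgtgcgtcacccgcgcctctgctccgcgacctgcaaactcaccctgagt

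These matches are letters in a window and show neither binding nor control. The other 6 promoters, of Nfe2l2, Keap1, Nqo1, Gclc, Ggt1 and the second start of Txnrd1, held neither set of letters in these 250 bases.

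**Figure D1:**
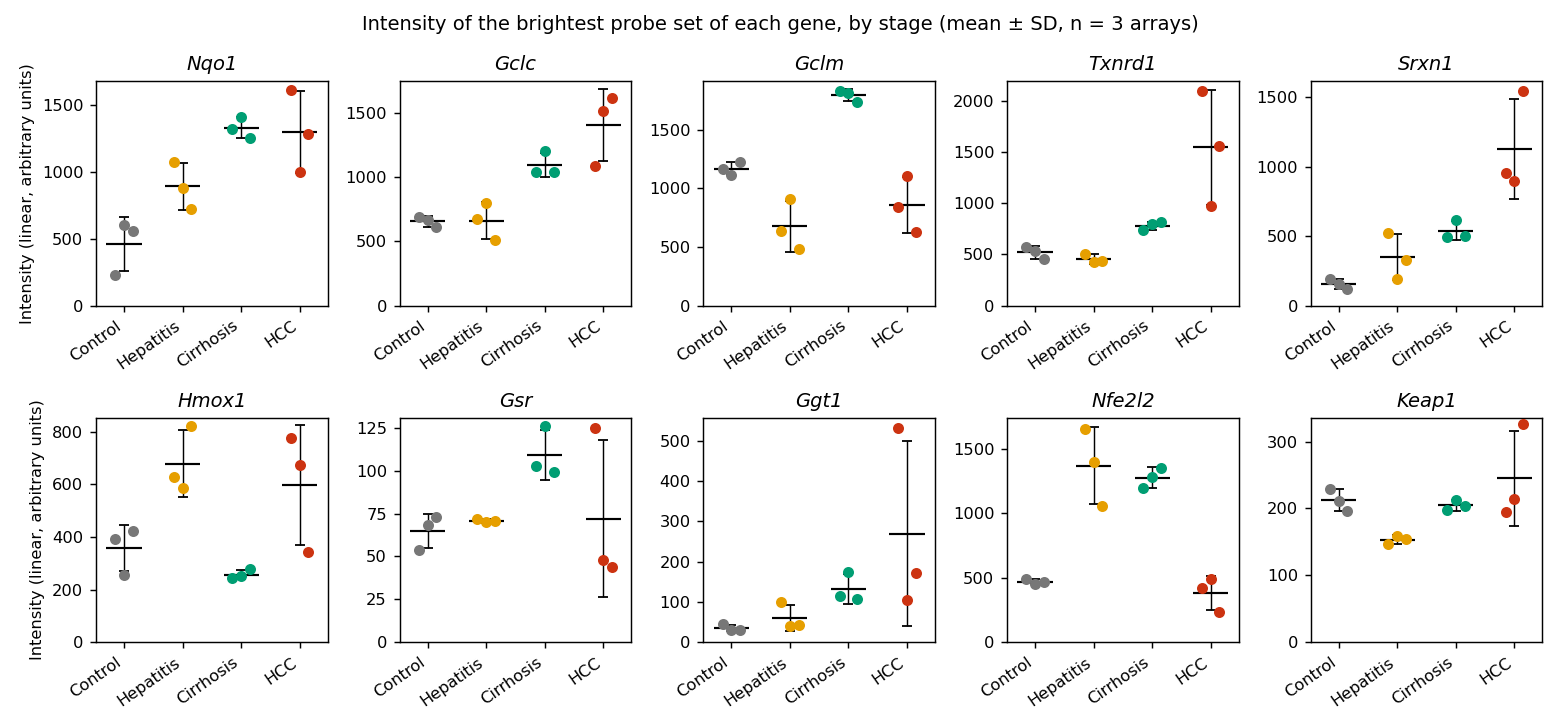
Intensity of each gene's brightest probe set (linear, arbitrary units, axes from 0) on every array, grouped as Control, Hepatitis, Cirrhosis and HCC. Points are arrays and bars are the mean and SD of 3 arrays. Nfe2l2 was highest in Hepatitis and Cirrhosis, at 1055 to 1654, while the highest Srxn1, Txnrd1 and Ggt1 readings, 1546, 2098 and 532, were on HCC arrays.

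Nfe2l2 rose in Hepatitis and Cirrhosis and fell in HCC against Cirrhosis. Its probe set, 1367826_at, read 490.1, 454 and 465 in Control, 1654, 1393 and 1055 in Hepatitis, 1192, 1281 and 1351 in Cirrhosis, and 421, 492 and 236 in HCC. Every Hepatitis and Cirrhosis array lay above every Control and HCC array, while HCC overlapped Control and held the lowest of the 12 readings, on replicate 3. Nfe2l2 rose by 1.49 ± 0.24 log2 units in Hepatitis against Control (2.80-fold, limma adjusted p = 0.0127). It rose by 1.41 ± 0.24 in Cirrhosis against Control (limma adjusted p = 0.017), and Cirrhosis against Hepatitis was not called (-0.08 ± 0.24, limma adjusted p = 0.983). In HCC against Cirrhosis it fell by 1.75 ± 0.24 log2 units (3.37-fold lower, limma adjusted p = 0.000551), and HCC against Control was not called (-0.34 ± 0.24, limma adjusted p = 0.325).

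The Nfe2l2 fall in HCC against Cirrhosis held whichever array was left out, with differences of -1.96 to -1.45, the smallest without HCC replicate 3. That array also had the widest Gapdh end difference, 3.20. The other Nfe2l2 calls were less firm. The Hepatitis call ended without Control replicate 2 (limma adjusted p = 0.0573) or Hepatitis replicate 1 (0.0532). The Cirrhosis call ended without Control replicate 1 or 2 (limma adjusted p = 0.0652 and 0.0687) or without any 1 of the Cirrhosis arrays (0.0596, 0.0698 and 0.0725). The size of the difference stayed at 1.34 to 1.66 in Hepatitis and 1.37 to 1.46 in Cirrhosis.

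Keap1, the adaptor that targets NRF2 for degradation, was not called in any of the 5 comparisons by its brightest probe set. That probe set, 1370066_at, read 229.5, 211 and 196 in Control, 147, 159.5 and 154 in Hepatitis, 197, 213 and 204 in Cirrhosis, and 195, 215 and 327 in HCC. The Hepatitis arrays lay below all others without overlap, and HCC replicate 3, the array with the Gapdh end difference of 3.20, was the highest. The Hepatitis against Control difference was -0.43 ± 0.15 (limma adjusted p = 0.185) and passed the threshold without HCC replicate 3 (limma adjusted p = 0.0109).

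A dimmer Keap1 probe set, 1387810_at, gave another picture in HCC. It read 23.0, 25.9 and 21.4 in Control, 18.5, 19.1 and 17.2 in Hepatitis, 24.4, 26.3 and 26.3 in Cirrhosis, and 10.9, 11.5 and 11.8 in HCC. It fell by 0.52 ± 0.05 log2 units in HCC against Control (limma adjusted p = 0.000101) and by 0.60 ± 0.05 in HCC against Cirrhosis (limma adjusted p = 4.14e-05), where the bright probe set differed by 0.16 ± 0.15 and 0.21 ± 0.15 and was not called. All 3 HCC readings of the dim probe set were under 16, and the 2 probe sets give no common direction for Keap1 in HCC.

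Among the antioxidant enzymes Nqo1, a quinone reductase that serves as a standard readout of NRF2, rose in Cirrhosis and HCC. Its probe set 1387599_a_at read 231, 603 and 557 in Control, 1074, 883 and 720.3 in Hepatitis, 1327, 1417 and 1257 in Cirrhosis, and 1614, 1000.0 and 1285 in HCC. All 9 arrays of DEN-treated rats lay above the 3 Control arrays, of which replicate 1 was far below its fellows. Nqo1 rose by 1.60 ± 0.32 log2 units in Cirrhosis against Control (3.03-fold, limma adjusted p = 0.0309) and by 1.54 ± 0.32 in HCC against Control (2.91-fold, limma adjusted p = 0.0061). The Hepatitis difference of 1.01 ± 0.32 was not called (limma adjusted p = 0.146). Without Control replicate 1 the differences were 1.18 in Cirrhosis and 1.12 in HCC, both still called (limma adjusted p = 0.0462 and 0.00611). The Cirrhosis call ended without any 1 of the Cirrhosis arrays (limma adjusted p = 0.0959 to 0.113), and the HCC call held whichever array was left out.

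Srxn1, sulfiredoxin, which restores over-oxidised peroxiredoxins, had the largest rise of the 10 genes in HCC against Control. Probe set 1372510_at read 193, 155 and 117 in Control, 522, 189.7 and 331 in Hepatitis, 494, 617 and 501 in Cirrhosis, and 952, 896 and 1546 in HCC. Hepatitis overlapped both Control and Cirrhosis, while every HCC array lay above all others, replicate 3 with its Gapdh end difference of 3.20 the farthest. Srxn1 rose by 2.73 ± 0.33 log2 units in HCC against Control (6.62-fold, limma adjusted p = 0.000408) and by 1.71 ± 0.33 in Cirrhosis against Control (3.28-fold, limma adjusted p = 0.0276). It also rose by 1.02 ± 0.33 in HCC against Cirrhosis (2.02-fold, limma adjusted p = 0.0427). The Hepatitis difference was 1.00 ± 0.33 and was not called (limma adjusted p = 0.164); without Hepatitis replicate 2 it was 1.36 and called (limma adjusted p = 0.0498).

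The Srxn1 call in HCC against Control held whichever array was left out, at 2.48 to 2.88 log2 units. The Cirrhosis call ended without any 1 Control array (limma adjusted p = 0.0723, 0.0906 and 0.0804) or any 1 Cirrhosis array (0.0854, 0.11 and 0.0909). The HCC against Cirrhosis call ended when any of 8 arrays was left out, namely Control replicates 1 and 2, Hepatitis replicate 3, all 3 Cirrhosis arrays and HCC replicates 1 and 3, with limma adjusted p between 0.0511 and 0.139. It also ended with 1 weight per group, which lets the groups differ in spread (limma adjusted p = 0.13).

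A second Srxn1 probe set, 1384331_at, also rose in Cirrhosis and HCC against Control, at a low level, but not in HCC against Cirrhosis. It read 22.1 to 27.2 in Control, 25.8 to 40.5 in Hepatitis, 42.5 to 54.6 in Cirrhosis and 49.2 to 65.2 in HCC, and rose by 0.68 ± 0.12 in Cirrhosis (limma adjusted p = 0.0223) and by 0.80 ± 0.12 in HCC (limma adjusted p = 0.00126). HCC against Cirrhosis was 0.13 ± 0.12 with overlapping groups (limma adjusted p = 0.489), so the Srxn1 rise there rests on the bright probe set. The Cirrhosis call of this probe set ended without Control replicate 1 or 2 or any 1 Cirrhosis array (limma adjusted p = 0.0513 to 0.0951). The third, 1381067_at, read 6.15 to 8.39 on the 12 arrays, under 16 on each, and was called in no comparison.

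Txnrd1, the cytosolic thioredoxin reductase that returns thioredoxin to its reduced form with NADPH, rose in HCC. Probe set 1398791_at read 573, 537 and 449 in Control, 507, 424 and 434 in Hepatitis, 733, 792 and 811 in Cirrhosis, and 2098, 971 and 1561 in HCC. Hepatitis overlapped Control, Cirrhosis lay above both, and HCC lay above Cirrhosis with a spread of 564 (SD) among its arrays. The HCC arrays were in the same order as their cholangiocyte sums of 6392, 380.2 and 1162. By their brightest probe sets Nqo1 and Ggt1 had that order in HCC too, and the other genes of the 10 did not. The part of those cells in the Txnrd1, Nqo1 and Ggt1 values was not tested. Txnrd1 rose by 1.48 ± 0.23 log2 units in HCC against Control (2.79-fold, limma adjusted p = 0.00121) and by 0.91 ± 0.23 in HCC against Cirrhosis (1.87-fold, limma adjusted p = 0.0127). Both calls held whichever array was left out, and HCC against Control was 1.23 ± 0.18 without HCC replicate 1. The Cirrhosis difference, 0.57 ± 0.23, was not called (limma adjusted p = 0.234), and was without HCC replicate 2 (limma adjusted p = 0.0368).

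The dimmer Txnrd1 probe set 1386958_at placed more of the difference in Cirrhosis. It read 86.2, 80.7 and 81.3 in Control, 95.5, 90.4 and 91.9 in Hepatitis, 179, 211 and 175 in Cirrhosis, and 325, 137 and 216 in HCC, where HCC straddled Cirrhosis and its arrays were again in the order of the cholangiocyte sums. It rose by 1.05 ± 0.22 in Cirrhosis (limma adjusted p = 0.037) and by 1.22 ± 0.22 in HCC against Control (limma adjusted p = 0.00317). HCC against Cirrhosis was 0.17 ± 0.22 and not called (limma adjusted p = 0.613). Its Cirrhosis call ended in 8 of the 12 fits that left out 1 array, those without a Control or Cirrhosis array or Hepatitis replicate 1 or 2 (limma adjusted p = 0.0518 to 0.139).

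**Figure D2:**
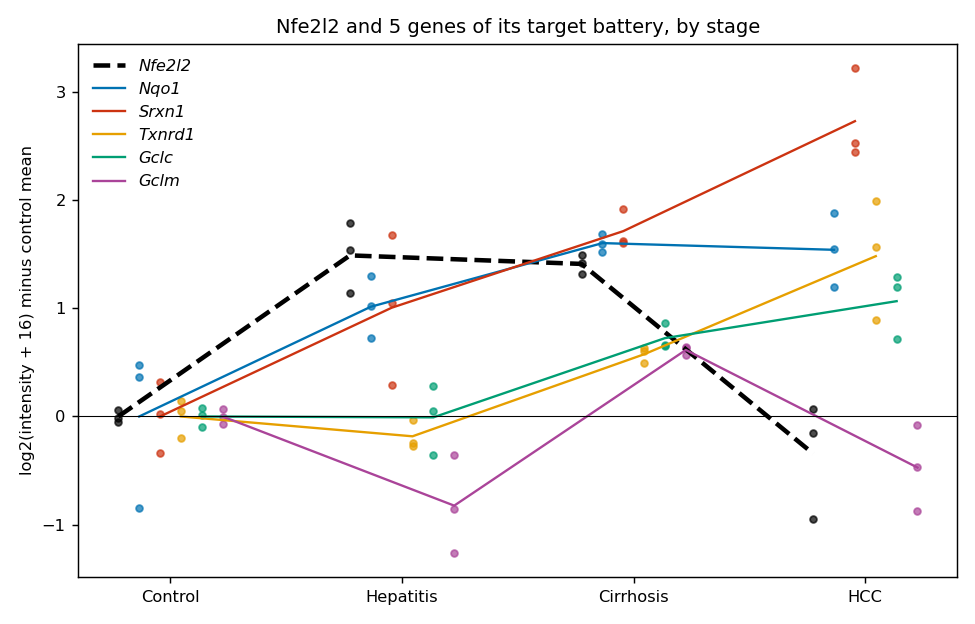
Nfe2l2 (dashed) and 5 enzyme genes by stage, as log2(intensity + 16) minus the Control mean of the same probe set. Points are arrays and lines join group means. Nfe2l2 stood 1.49 above Control in Hepatitis and 0.34 below it in HCC, where Srxn1 was 2.73, Nqo1 1.54, Txnrd1 1.48 and Gclc 1.06 above and Gclm 0.47 below.

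The first step of glutathione synthesis joins cysteine and glutamate and is catalysed by glutamate-cysteine ligase. The catalytic subunit of this ligase is the product of Gclc and its modifier subunit is the product of Gclm. In HCC against Control Gclc rose by its brightest probe set and Gclm was not called. Gclc, by probe set 1372523_at, read 692, 662 and 609.9 in Control, 677, 797 and 509 in Hepatitis, 1038, 1201 and 1040.3 in Cirrhosis, and 1085, 1515 and 1618 in HCC. Hepatitis straddled Control, and every Cirrhosis and HCC array lay above both. Gclc rose by 1.06 ± 0.18 log2 units in HCC against Control (2.09-fold, limma adjusted p = 0.00184), whichever array was left out. In Cirrhosis the difference of 0.72 ± 0.18 missed the threshold (limma adjusted p = 0.0568) and passed it without Hepatitis replicate 2 or 3 or HCC replicate 1 or 3 (limma adjusted p = 0.025 to 0.0496).

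A second Gclc probe set, 1370688_at, went another way in HCC. It read 135, 139.8 and 125 in Control, 150.5, 174 and 119.7 in Hepatitis, 249, 296 and 265 in Cirrhosis, and 136, 139 and 139 in HCC. Cirrhosis lay above all other arrays and HCC lay within the range of Control. This probe set rose by 0.94 ± 0.11 in Cirrhosis against Control (limma adjusted p = 0.00472) and by 0.81 ± 0.11 in Cirrhosis against Hepatitis (limma adjusted p = 0.0126, and 0.0689 or 0.0674 without Cirrhosis replicate 2 or 3). It fell by 0.89 ± 0.11 in HCC against Cirrhosis (limma adjusted p = 0.000331), and HCC against Control was 0.04 ± 0.11 (limma adjusted p = 0.81). Both Gclc probe sets were thus higher in Cirrhosis than in Control, the dimmer one past the threshold, and they disagreed in HCC. The sources used here do not place either one along the transcript.

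Gclm was lowest in Hepatitis and HCC and highest in Cirrhosis. Probe set 1370030_at read 1167, 1111 and 1225 in Control, 639, 906 and 479 in Hepatitis, 1835, 1815 and 1737 in Cirrhosis, and 841, 1104 and 632 in HCC. The 3 Cirrhosis arrays lay above all others, the Control arrays came next, and Hepatitis and HCC overlapped each other below Control, with HCC replicate 3, of the Gapdh end difference of 3.20, the lowest of the HCC arrays. Gclm rose by 1.44 ± 0.23 log2 units in Cirrhosis against Hepatitis (2.71-fold, limma adjusted p = 0.0275) and fell by 1.09 ± 0.23 in HCC against Cirrhosis (2.12-fold lower, limma adjusted p = 0.00535). No comparison with Control passed. The differences from Control were -0.82 ± 0.23 in Hepatitis (limma adjusted p = 0.0957), 0.61 ± 0.23 in Cirrhosis (limma adjusted p = 0.2) and -0.47 ± 0.23 in HCC (limma adjusted p = 0.154).

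The Gclm fall in HCC against Cirrhosis held whichever array was left out, from -1.28 to -0.89. Its rise in Cirrhosis against Hepatitis ended in 7 of 12 such fits, without Control replicate 1 or 2, Hepatitis replicate 1 or 3 or any 1 Cirrhosis array (limma adjusted p = 0.0568 to 0.123). Without Hepatitis replicate 2, the highest of its group, Hepatitis against Control was -1.06 and called (limma adjusted p = 0.0365). Without HCC replicate 2, the highest of its group, HCC against Control was -0.67 and called (limma adjusted p = 0.0446).

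Gsr, glutathione reductase, which regenerates glutathione from its oxidised form, was called in no comparison. Probe set 1369061_at read 54.0, 68.2 and 72.8 in Control, 71.7, 69.8 and 70.5 in Hepatitis, 103, 126 and 99.2 in Cirrhosis, and 125, 47.8 and 43.6 in HCC. Cirrhosis lay above Control and Hepatitis, while HCC was split, with replicate 1 at the Cirrhosis level and the other pair below all 9 arrays of the other groups. Replicate 1 also had the highest cholangiocyte sum of the 12 arrays, 6392, and the narrowest Gapdh end difference of the HCC arrays, 1.36, and neither was tested for its part in the split. HCC against Control was 0.01 ± 0.27 (limma adjusted p = 0.983) with that array and -0.39 ± 0.11 (limma adjusted p = 0.0318) without it. HCC against Cirrhosis was likewise -0.62 ± 0.27 (limma adjusted p = 0.118) with it and -1.02 ± 0.11 (limma adjusted p = 0.000291) without it. Cirrhosis against Control, 0.63 ± 0.27 (limma adjusted p = 0.289), was called without that HCC array (limma adjusted p = 0.0128).

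Ggt1, gamma-glutamyltransferase, which breaks down extracellular glutathione and has long served as a marker of altered foci in rat liver, rose in HCC. Probe set 1368374_a_at read 44.2, 31.4 and 30.6 in Control, 98.7, 39.7 and 42.4 in Hepatitis, 115, 176 and 108 in Cirrhosis, and 532, 104 and 171 in HCC. Hepatitis overlapped Control, and every Cirrhosis and HCC array lay above both. Ggt1 rose by 2.18 ± 0.50 log2 units in HCC against Control (4.53-fold, limma adjusted p = 0.00902). The Cirrhosis difference, 1.52 ± 0.50, was not called (limma adjusted p = 0.144), nor was HCC against Cirrhosis, 0.66 ± 0.50 (limma adjusted p = 0.352).

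The size of the Ggt1 difference rested in part on HCC replicate 1. Without it the HCC difference was 1.56 ± 0.34 (limma adjusted p = 0.009), the Cirrhosis difference of 1.52 ± 0.30 was called (limma adjusted p = 0.0264), and HCC against Cirrhosis was 0.04 ± 0.34 (limma adjusted p = 0.948). Bile duct cells also carry GGT1. The arrays with the highest Ggt1 in Hepatitis and in HCC, replicate 1 of each, were those with the highest cholangiocyte sums, 1100 and 6392, and the part of these cells in the Ggt1 result was not tested.

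Hmox1, haem oxygenase, which degrades haem and answers to both NRF2 and the repressor BACH1, differed in pattern from the other enzymes. Probe set 1370080_at read 394, 257 and 423 in Control, 628, 586 and 823 in Hepatitis, 243, 251 and 278 in Cirrhosis, and 777, 673 and 342 in HCC. Hepatitis lay above Control, Cirrhosis overlapped the low end of Control, and HCC lay above Cirrhosis but overlapped Control, with replicate 3, of the Gapdh end difference of 3.20, the lowest. Hmox1 rose by 1.09 ± 0.29 log2 units in HCC against Cirrhosis (2.13-fold, limma adjusted p = 0.0164), a call that ended without Cirrhosis replicate 1 (limma adjusted p = 0.0531). The differences of 0.91 ± 0.29 in Hepatitis (limma adjusted p = 0.143) and 0.66 ± 0.29 in HCC (limma adjusted p = 0.113), both against Control, were not called, and both were without HCC replicate 3 (limma adjusted p = 0.0339 and 0.00804). Cirrhosis against Hepatitis was -1.33 ± 0.29 (limma adjusted p = 0.0843), and was called without HCC replicate 3 (limma adjusted p = 0.0201).

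Liver macrophages that clear red cells are rich in Hmox1, so their markers are set beside it. Summed over the 8 of 10 listed macrophage markers measured, they ran from 3625 to 7649 in Control, 6006 to 6985 in Hepatitis, 5396 to 5726 in Cirrhosis and 1675 to 2680 in HCC, and none was under 16 throughout a group. The HCC arrays thus had the lowest macrophage sums and, in 2 of 3 cases, Hmox1 above every Control array. The part of macrophages in the Hmox1 values was not tested.

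**Figure D3:**
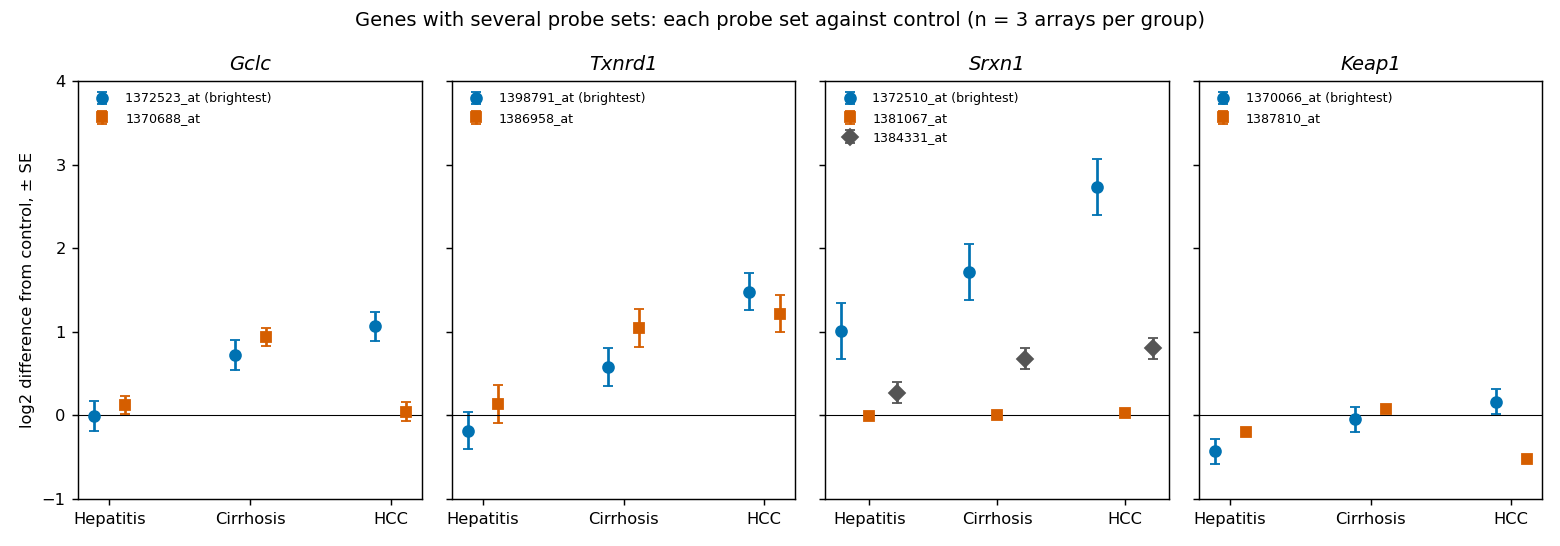
Each probe set of the 4 genes that have several, as the log2(intensity + 16) difference of each stage from Control with its SE (n = 3 arrays per group). In HCC the Gclc probe sets stood at 1.06 and 0.04, the Keap1 probe sets at 0.16 and -0.52, the Txnrd1 probe sets at 1.48 and 1.22, and the Srxn1 probe sets at 2.73, 0.80 and 0.02.

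By the brightest probe sets the calls against Control were rises, given here stage by stage. The dimmer Keap1 probe set, 1387810_at, went the other way in HCC against Control (-0.52 ± 0.05, limma adjusted p = 0.000101). In Hepatitis 1 of 10 genes rose, Nfe2l2, where 1.72% of all 14217 genes rose and 2% fell, and the median difference of the 10 was 0.30. In Cirrhosis 3 of 10 rose, Nfe2l2, Nqo1 and Srxn1, where 1.65% of all genes rose and 1.99% fell, with a median of 0.68. In HCC 5 of 10 rose, Nqo1, Srxn1, Txnrd1, Gclc and Ggt1, where 19.1% of all genes rose and 18.2% fell, with a median of 0.86. The median of all genes was between -0.0025 and 0.0073 in the 5 comparisons.

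By these probe sets, in the fit of all 12 arrays, Nfe2l2 was called in Hepatitis and Cirrhosis and not in HCC. Txnrd1, Gclc and Ggt1 were called in HCC and not in the earlier stages. They were called in Cirrhosis against Control when only those 2 groups were fitted (limma adjusted p = 0.0112, 0.00288 and 0.00473). With 1 weight per group they were called there too (limma adjusted p = 0.0154, 0.00601 and 0.0107). The dimmer Gclc and Txnrd1 probe sets were called in Cirrhosis in the fit of all 12 arrays. Whether a gene's difference in HCC was itself larger than in Cirrhosis is answered by HCC against Cirrhosis, in which 3 genes rose (Srxn1, Txnrd1 and Hmox1) and 2 fell (Nfe2l2 and Gclm), where 19.2% of all genes rose and 17.6% fell, so that the share falling was near that of all genes. In Cirrhosis against Hepatitis 1 gene rose, Gclm, where 0.309% of all genes rose and 0.521% fell. The members' medians there were 0.28 and 0.65. Comparisons with Control share the same 3 arrays, so their values are given side by side and no agreement between them is counted.

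**Figure D4:**
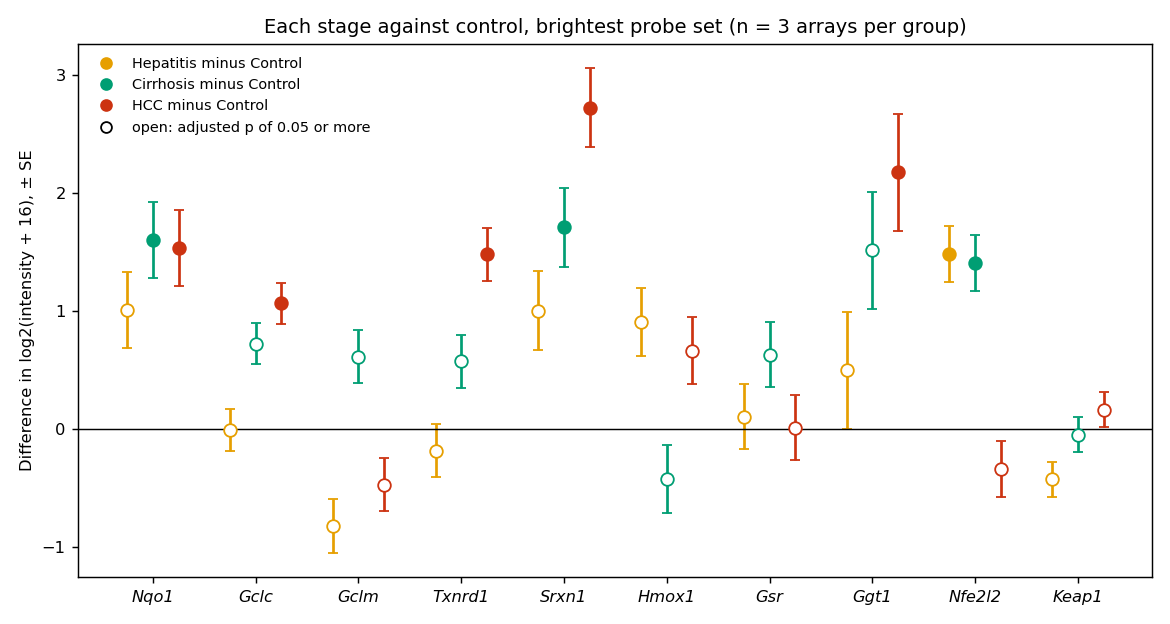
Difference of each stage from Control for the 10 genes (log2(intensity + 16), brightest probe set, bars ± SE, n = 3 arrays per group). Filled points passed an adjusted p of 0.05, which were 1 gene in Hepatitis, 3 in Cirrhosis and 5 in HCC, all above 0.

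Of the 15 calls over these 5 comparisons 8 held whichever of the 12 arrays was left out. They were Nqo1, Gclc, Txnrd1, Srxn1 and Ggt1 in HCC against Control, and Gclm, Txnrd1 and Nfe2l2 in HCC against Cirrhosis. All 8 involve the HCC group, and by the brightest probe sets no call in Hepatitis or Cirrhosis against Control held in every such fit. The dimmer Gclc probe set, 1370688_at, kept its call in Cirrhosis against Control whichever array was left out (limma adjusted p at most 0.0275). The fit gives each probe set 1 spread for all groups, while the median SD per group on the log2 scale was 0.0712 (Control), 0.0804 (Hepatitis), 0.0652 (Cirrhosis) and 0.144 (HCC).

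Of 11 listed genes that act on NRF2 or beside it 10 were measured. In Hepatitis and in Cirrhosis 1 fell and none rose, where 2% and 1.99% of all genes fell and 1.72% and 1.65% rose. In HCC against Control 1 rose, below the 19.1% of all genes, and in HCC against Cirrhosis 3 rose, where 19.2% of all genes did. Mafg, a small MAF protein that pairs with NRF2 on DNA, read 195, 192 and 186 in Control, 127, 111 and 133 in Hepatitis, 139.9, 143 and 139 in Cirrhosis, and 203, 178 and 194 in HCC. It fell by 0.57 ± 0.06 log2 units in Hepatitis (limma adjusted p = 0.00247) and by 0.40 ± 0.06 in Cirrhosis (limma adjusted p = 0.014), the stages at which Nfe2l2 rose, and it rose by 0.41 ± 0.06 in HCC against Cirrhosis (limma adjusted p = 0.0012). Maff, another small MAF protein, rose by 1.25 ± 0.25 in HCC against Control (limma adjusted p = 0.00508) and by 1.15 ± 0.25 against Cirrhosis (limma adjusted p = 0.00709). Gsk3b, a kinase that marks NRF2 for a KEAP1-independent ligase, rose by 0.60 ± 0.16 in HCC against Cirrhosis (limma adjusted p = 0.0187). No other measured regulator, Cul3, Rbx1, Bach1 and Sqstm1 among them, was called in the 5 comparisons. Bach1 read 10.7 to 14.8 on the 12 arrays, under 16 on each, so its lack of a call does not show that it was unchanged.

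Of 20 other genes known as NRF2 targets 17 were measured. In Hepatitis 1 rose and 1 fell, where 1.72% and 2% of all genes did, and in Cirrhosis 4 rose and none fell, where 1.65% and 1.99% did. In HCC against Control 11 rose, where 19.1% of all genes rose, and 3 fell, a share near the 18.2% of all genes. The list medians were -0.10, 0.39 and 1.00. The Hepatitis pair were Gstp1, the placental glutathione transferase that marks altered hepatocytes in rats, and Ugdh, which supplies UDP-glucuronate, at 2.04 ± 0.44 and -0.73 ± 0.15 (limma adjusted p = 0.0409 and 0.0331). Gstp1 read 350.2, 354 and 331 in Control, 3688, 854 and 999 in Hepatitis, 5276, 6919 and 5519 in Cirrhosis, and 9755, 8430.2 and 7696 in HCC, with no overlap between any stage and Control.

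In Cirrhosis the called targets were Gstp1 (4.03 ± 0.44), the aldo-keto reductases Akr1b8 (3.67 ± 0.52) and Akr7a3 (1.47 ± 0.24), and the aldehyde dehydrogenase Aldh3a1 (2.20 ± 0.17), with limma adjusted p from 0.000767 to 0.0148. Aldh3a1 read 17.1, 15.2 and 18.0 in Control, 23.4, 19.8 and 21.6 in Hepatitis, 151, 152 and 106 in Cirrhosis, and 33.8, 44.7 and 21.8 in HCC. It was highest in Cirrhosis on every array, and it rose 4.01-fold in Cirrhosis against Hepatitis (limma adjusted p = 0.00105), where Akr7a3 and Ugdh also rose, by 1.89 ± 0.24 and 1.21 ± 0.15.

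In HCC the target list moved both ways. The called genes with the largest differences from Control were Akr1b8 (5.35 ± 0.52), Gstp1 (4.57 ± 0.44), the glutathione peroxidase Gpx2 (3.32 ± 0.94) and the cystine transporter Slc7a11 (2.03 ± 0.39), with limma adjusted p from 0.000129 to 0.0246. Gpx2 read 94.6, 26.9 and 66.7 in Control, 580.1, 124 and 43.6 in Hepatitis, 129, 154 and 106 in Cirrhosis, and 1987, 177 and 996 in HCC. It was highest on the replicate 1 arrays of Hepatitis and HCC, which had the highest cholangiocyte sums (1100 and 6392), and the part of those cells was not tested. Slc7a11 read 379, 102 and 351 in HCC against 48.8, 46.8 and 46.3 in Control, and 40.0, 42.8 and 45.3 in Cirrhosis. Against Cirrhosis 6 targets rose and 5 fell, where 19.2% of all genes rose and 17.6% fell. These calls were led by Slc7a11 (2.14 ± 0.39) and Akr1b8 (1.68 ± 0.52) upward and by the export pump Abcc2 (-2.11 ± 0.49) and the epoxide hydrolase Ephx1 (-1.85 ± 0.33) downward.

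No measured enzyme of NADPH supply, the reductant used by Gsr and Txnrd1, was called higher in Hepatitis or Cirrhosis against Control. Of all genes 1.72% and 1.65% rose there, so no rise among so few genes is near that share. Of 9 measured genes of 10 listed, 2 fell in Hepatitis, 1 fell in Cirrhosis, and 1 rose and 4 fell in HCC, all against Control. Of all genes 2% fell in Hepatitis, 1.99% fell in Cirrhosis, and 19.1% rose and 18.2% fell in HCC. Me1, malic enzyme, fell by 2.40 ± 0.24 log2 units in Hepatitis (limma adjusted p = 0.00149), 1.46 ± 0.24 in Cirrhosis (limma adjusted p = 0.0149) and 1.04 ± 0.24 in HCC (limma adjusted p = 0.00876). It read 183, 173 and 120.1 in Hepatitis against 879.9, 967 and 830.1 in Control. Tkt, transketolase of the pentose phosphate pathway, fell by 0.82 ± 0.17 in Hepatitis (limma adjusted p = 0.0358) and rose by 0.61 ± 0.17 in HCC (limma adjusted p = 0.0228). Nadk and Nnt, a NAD kinase and the mitochondrial transhydrogenase, fell by 1.06 ± 0.12 and 0.98 ± 0.15 in HCC (limma adjusted p = 0.000296 and 0.00145).

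The rest of glutathione metabolism, with 18 of 19 listed genes measured, had 1 fall in Hepatitis, 2 rises and 1 fall in Cirrhosis, and 1 rise and 8 falls in HCC, with medians of -0.06, -0.13 and -0.46. The 8 falls in HCC stand beside 18.2% of all genes falling and the 1 rise beside 19.1% rising, while in the earlier stages at most 2% of all genes moved in either direction. Slc3a2, the partner chain of the cystine transporter Slc7a11, read 502, 428 and 535 in Hepatitis and 497, 533 and 529.6 in Cirrhosis against 1267, 1189 and 1066 in Control, and fell by 1.24 ± 0.15 and 1.15 ± 0.15 (limma adjusted p = 0.00347 and 0.00596). Gpx3, the secreted glutathione peroxidase, rose by 1.29 ± 0.28 in Cirrhosis (limma adjusted p = 0.0366) and 2.19 ± 0.28 in HCC (limma adjusted p = 0.000469). In HCC Gpx1, a cytosolic glutathione peroxidase, fell by 1.43 ± 0.13 (limma adjusted p = 9.55e-05), at 2215, 2682 and 1732 against 5744, 6398 and 5535 in Control, and the glyoxalase Hagh fell by 2.96 ± 0.50 (limma adjusted p = 0.00193).

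Thioredoxins, peroxiredoxins and superoxide dismutases, partners of Txnrd1 and Srxn1, gave 1 fall in Hepatitis, no call in Cirrhosis, and 1 rise and 8 falls in HCC among 14 of 15 listed genes measured, with medians of -0.02, 0.05 and -0.73. Of all genes 2% fell in Hepatitis, 1.65% rose and 1.99% fell in Cirrhosis, and 19.1% rose and 18.2% fell in HCC. The largest HCC falls were those of Prdx4 (-1.53 ± 0.27), Prdx5 (-1.44 ± 0.26), Txn2 (-1.43 ± 0.11) and Sod3 (-1.16 ± 0.17), with limma adjusted p from 5.11e-05 to 0.00274. The 1 rise was Txn1, the cytosolic thioredoxin that Txnrd1 reduces, by 0.48 ± 0.13 (limma adjusted p = 0.0208), though its HCC arrays overlapped Control.

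**Figure D5:**
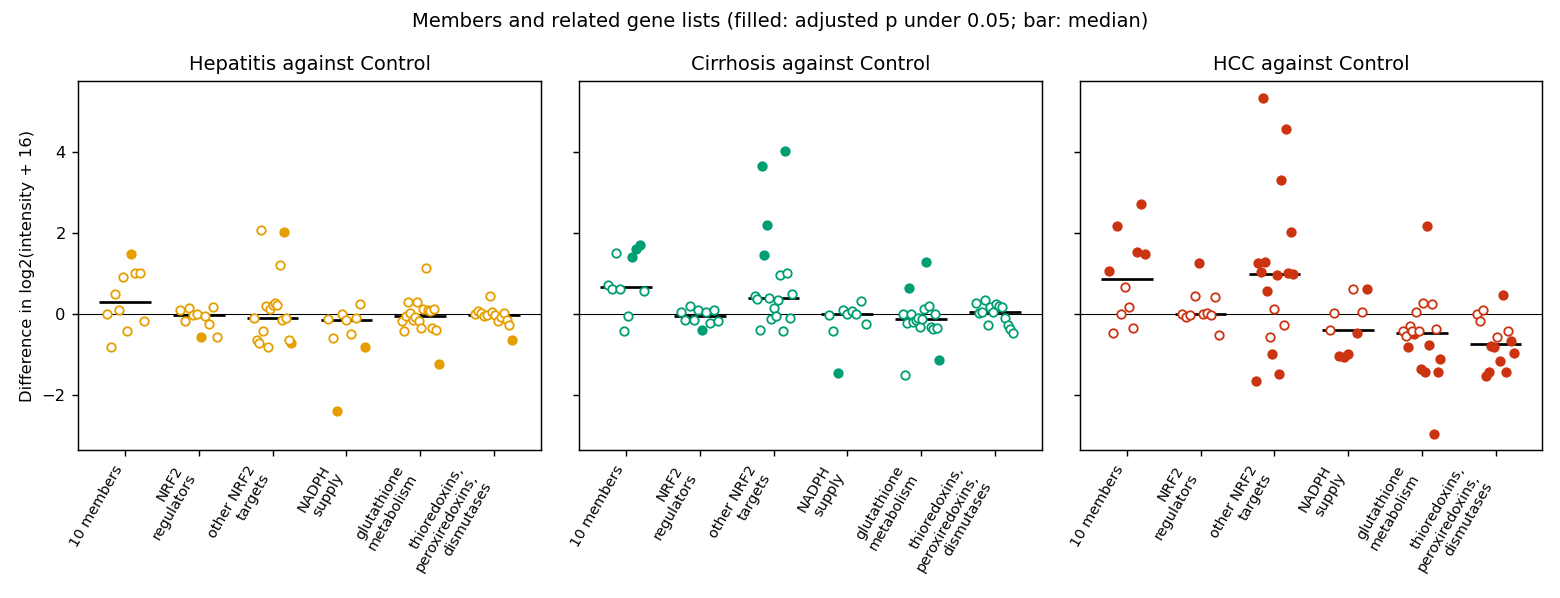
Differences of the 10 genes and of 5 related gene lists from Control in each stage (log2(intensity + 16)). Points are genes by their brightest probe set, filled where adjusted p was under 0.05, and bars are list medians. In HCC the medians were 0.86 for the 10 genes and 1.00 for other NRF2 targets, against -0.46 for glutathione metabolism and -0.73 for thioredoxins, peroxiredoxins and dismutases.

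The genes whose profiles were most like each member were sought among 7168 genes with a group mean of at least 100, by the mean absolute difference of log2 values centred per gene over the 12 arrays. Nfe2l2 was closest to Rprm (0.221), Id2 (0.237) and Ifitm3 (0.242). Nqo1 was closest to Tmem184c, Trim32 and Litaf (0.267 to 0.295), and Srxn1 to Isg15, Gpx3 and Pmepa1 (0.303 to 0.354). Txnrd1 was closest to Sms (0.127), Syncrip and Nap1l1, and Gclc to Ticam1, Golph3l and Cpne3 (0.180 to 0.187). Gclm was closest to Mid1ip1 (0.171), Gstt3 and Ifit2, and Ggt1 to Mmd, Pmepa1 and Emp1 (0.279 to 0.311). Hmox1 was closest to Sri, Plxnb1 and Pip4p2 (0.225 to 0.283), Gsr to Klhdc2, Rab11fip5 and Cdc42 (0.108 to 0.144), and Keap1 to Paip2b, Csnk2a2 and Tfb1m (0.0964 to 0.103). The 12 points are 3 arrays of each of 4 groups, so the measure is in large part one of group means.

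Among the 10 genes themselves Gclc and Txnrd1 were nearest, 0.273 apart on the same measure, and Srxn1 and Nfe2l2 farthest, 1.17 apart. Of the other 9 genes Gsr was the nearest to Nfe2l2, at 0.629. A gene equal on all arrays would be 0.810 from Nfe2l2, so the likeness to Gsr is weak. The measure depends on the range of each gene, and distances are not compared between members.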

How the data were processed

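RNA of 12 rat samples was measured on 12 arrays, and samples were grouped by their labels. The authors deposited linear intensity values, 1 per probe set and array, and MAS5 and RMA are named in the submitters' processing notes with no word on which made them. The table held 31099 rows, 57 of them array controls that were left out, and the number of arrays, 3 per group, limits precision. Of 31042 probe sets 20832 had 1 gene in the platform annotation, 436 several and 9774 none. Symbols were checked against RefSeq genes of GRCr8, which changed 0 of them. The deposited intensities were turned into log2(value + 16) and fitted with limma 3.58.1 (lmFit, eBayes, prior degrees of freedom 1.60) in R 4.3.3, with 5 contrasts, 2-sided moderated tests and Benjamini-Hochberg adjustment over all probe sets. The fit was run on simulated arrays whose groups shared 1 spread per probe set. That run does not cover the wider spread of the HCC arrays. The alternatives were other added values (1 and 64), quantile normalization, leaving out the dimmest 30% of probe sets, 1 probe set per gene, fitting only the 2 groups compared, 1 weight per group, the replicate number as a block, and leaving out each array. Named genes are the 10 members and, per list and comparison, up to 4 called genes by size, with the 3 nearest genes per member; values for other genes were chosen after they were seen. The members and lists were chosen with earlier results of these data known. Python 3.11.15 with numpy 2.4.6, pandas 2.3.3 and, for plots, matplotlib 3.10.9 did the rest.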

Additional observations from a re-analysis of the deposited data

How the results depend on the processing

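Of the 15 calls of the 10 genes 8 held in each of the 8 alternatives other than leaving out an array, and no called difference changed sign in any. Of 35 differences not called, 18 were called in some alternative. With only the 2 groups compared the members called were 2 in Hepatitis, 8 in Cirrhosis and 3 in HCC against Control, 4 in Cirrhosis against Hepatitis and 3 in HCC against Cirrhosis, where limma over all groups called 1, 3, 5, 1 and 5, and over all probe sets 4949 were called in Cirrhosis, 4994 in HCC, 466 in Cirrhosis against Hepatitis and 6499 in HCC against Cirrhosis. That fit ended the calls of Nqo1 and Ggt1 in HCC against Control (limma adjusted p = 0.0573 and 0.0564) and of Txnrd1 and Hmox1 in HCC against Cirrhosis (0.0743 and 0.0601). With 1 weight per group, which gives HCC arrays less weight (0.34, against 1.14 to 1.77), the Srxn1 call in HCC against Cirrhosis ended (0.13), and 4, 8 and 5 members were called in Hepatitis, Cirrhosis and Cirrhosis against Hepatitis, and 2620, 4212 and 1118 probe sets. With 1 probe set per gene, which tests fewer rows, 568, 475 and 5501 were called in Hepatitis, Cirrhosis and HCC against Control and 5262 in HCC against Cirrhosis.

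No label says whether equal replicate numbers pair the samples. Of 18 same-number correlations of deviations from the group means 2 were above 0.1 (range -0.22 to 0.34). Both were between Hepatitis and HCC arrays (0.34 and 0.17). With 3 arrays per group such correlations cannot settle whether samples were paired. With the replicate block 1 member was called in Cirrhosis, as Nqo1 (limma adjusted p = 0.0673) and Srxn1 (0.0514) were lost, and 717 probe sets there and 133 in Cirrhosis against Hepatitis; Srxn1 in HCC against Cirrhosis was lost too (0.0587). Leaving out each array in turn gave 0 to 3 members in Hepatitis, 0 to 6 in Cirrhosis and 5 to 6 in HCC against Control, 0 to 3 in Cirrhosis against Hepatitis and 3 to 6 in HCC against Cirrhosis, and over all probe sets 297 to 1652, 194 to 1884, 6642 to 10638, 63 to 439 and 7611 to 11311 in the same order. The only sign change past the threshold was Gsr in HCC against Control, -0.39 without HCC replicate 1 (limma adjusted p = 0.0318) against 0.01 with it and at most 0.23 without any other array. Of 25 counts of called genes in the related lists 11 moved by over 1.5 times with only the 2 groups compared and 11 with 1 weight per group, against 0 to 6 in each other setting. The median log2 difference of the probe sets fitted lay between -0.0168 and 0.0152 over all comparisons and settings. The causes were not tested beyond what each setting changes by construction, and probe sets under 16, such as 1 of Srxn1 on all arrays and 1 of Keap1 in HCC, carry little signal over background.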
